A study of Manihot esculenta with 4 samples.

Results

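Drought-stressed leaves of 2 cassava cultivars, Xinxuan048 and KU50, were compared gene by gene in 1 RNA sequencing library each, 2 of the 4 libraries of the series. The other 2 libraries came from leaves of the same cultivars under normal conditions, which the labels call control. The labels give no length or severity of the drought, no plant age and no number of plants behind a library. A gene entered the comparison if its FPKM averaged 1 or more over the drought libraries, where FPKM are fragments scaled by transcript length and by mapped fragments. These were 20034 of the 26325 genes listed in at least 1 drought library, and a gene that a library's file leaves out counts as 0 FPKM and is termed unlisted. Of them, 19531 lay at loci of at least 500 bases, and the 503 at shorter loci are given apart. Differences are log2 ratios of FPKM + 1, Xinxuan048 over KU50, so a positive value is higher in Xinxuan048. With 1 library on each side no difference has a test, an error or a replicate check, and all values describe these libraries.

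Cassava, Manihot esculenta, is a tropical root crop that is known to close its stomata early and to shed leaves when water runs short. Its cultivars are kept as clones grown from stem cuttings, and cultivars can carry different alleles, copy numbers and gene content. A gene that is high in 1 cultivar and near silent in the other under every condition therefore differs from a gene that diverges only once water is withheld, and the control libraries let these patterns be set side by side. Genes are given by their locus tags, since the files give no names with the tags and 0 of 27146 tags matched a table of 34312 RefSeq cassava genes. The leaf label could for the same reason not be checked against marker genes. Lower RNA of a gene in leaf tissue can come from fewer cells of a type or from less RNA per cell, and these cannot be told apart here.

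The drought libraries were of like size in the files. Xinxuan048 drought listed 25009 genes with a total of 618290 FPKM, and KU50 drought listed 25336 genes with a total of 611226 FPKM. The absolute number of fragments is unknown, but low values fall on steps that show what 1 fragment is worth. Among 521 genes under 0.15 FPKM in both drought libraries, 102 had a log2 ratio of the plain FPKM within 0.04 of 0.18, where a window of that width held a median of 7 genes. On that scale 1 fragment was worth 1.13 times as many FPKM in Xinxuan048 drought as in KU50 drought, and 1.16 times as many as in Xinxuan048 control. If that held for all genes, the KU50 drought library was somewhat deeper. Short loci need not follow it, since MANES_S072600, of 362 bases, had 54.5 FPKM in Xinxuan048 drought and 60.2 FPKM in Xinxuan048 control. Depth is therefore not settled, and the least numbers of fragments given for longer loci rest on this scale. The step is large at the shortest loci, of 150 bases. In KU50 control MANES_11G093200 had 51.6 FPKM and MANES_13G057200 had 103 FPKM there, 2 times that step.

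Most genes had like levels in both cultivars under drought. Of the 19531 genes at loci of at least 500 bases, 14725 (75.4%) lay within 0.5 of equal levels on the log2 scale, and 90% lay between -0.90 and 0.73. The median log2 ratio was -0.08 and the SD across genes was 0.58. By the limit of 2-fold, 511 genes (2.62%) stood higher in Xinxuan048 and 783 genes (4.01%) stood lower. At least 4-fold differences were found at 92 genes higher and 175 genes lower, and at least 8-fold differences at 25 and 49. The excess of lower genes became smaller on a centred scale. Centred on the median log2 ratio of all kept genes, 619 genes were higher and 658 lower, which puts the higher ones at 48.5%, against 39.5% as deposited. Loci under 500 bases took up 8.96% of the FPKM total in Xinxuan048 drought and 2.24% in KU50 drought. Longer loci thus made up a smaller share of the total in Xinxuan048 drought. The part of this in the median and in the excess of lower genes was not tested. The counts depend on the pseudocount, and with 5 in place of 1 they were 158 higher and 260 lower.

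**Figure D1:**
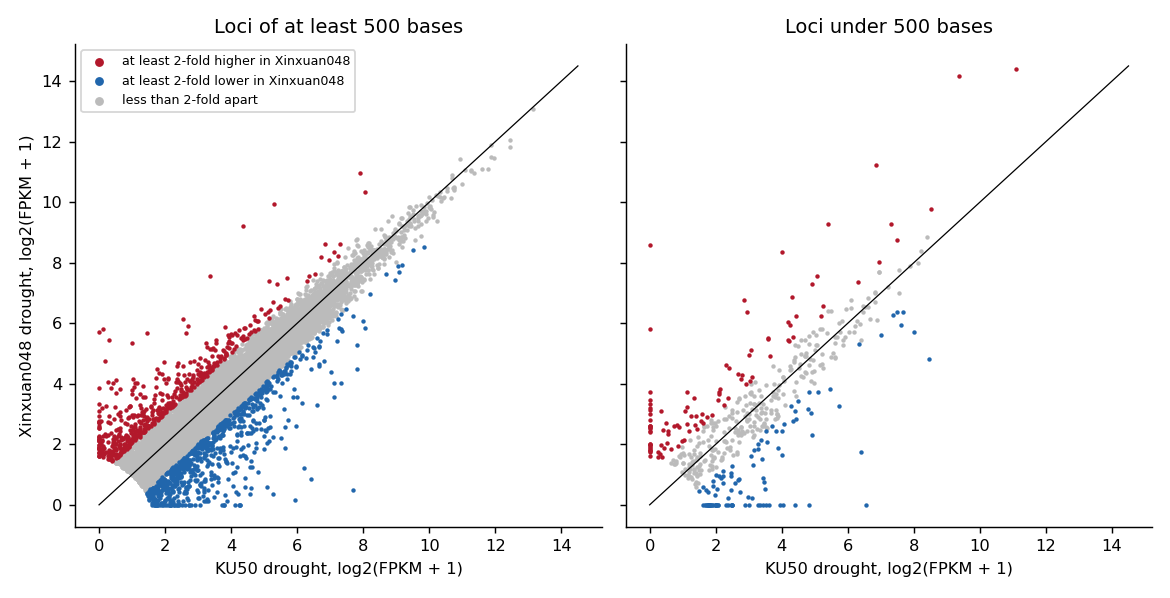
Levels of each kept gene in Xinxuan048 drought (vertical axis) and KU50 drought (horizontal axis), both as log2(FPKM + 1), with loci of at least 500 bases on the left and shorter loci on the right. The line marks equal levels, and points at 0 on an axis are unlisted in that library; 511 genes on the left lie at least 2-fold above the line and 783 at least 2-fold below it.

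The genes that differed had lower levels, at the median, than all kept genes. Their mean level over the drought libraries had a median of 4.92 FPKM for the higher genes and 5.61 FPKM for the lower genes, beside 11.4 FPKM over all 19531. Among the 3099 genes averaging 1 to 3 FPKM, 13.6% were at least 2-fold apart in either direction, and among the 6809 genes of 10 to 30 FPKM 4.07% were. At higher levels the share was of like size. It was 3.52% of the 2954 genes of 30 to 100 FPKM, 3.70% of the 649 genes of 100 to 300 FPKM and 5.37% of the 205 genes of 300 FPKM or more, where 4 were higher and 7 lower. Locus span went with a steeper change. At least 2-fold differences were found at 22.7% of the 1290 loci of 500 to 1000 bases, 5.98% of the 6291 loci of 2000 to 4000 bases and 1.91% of the 2826 loci of 8000 bases or more. Level and transcript length set how many fragments a gene collects. Span is the distance from the first to the last base of a locus, which may include introns, so it is not transcript length. The part of counting noise in these shares was not tested.

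**Figure D2:**
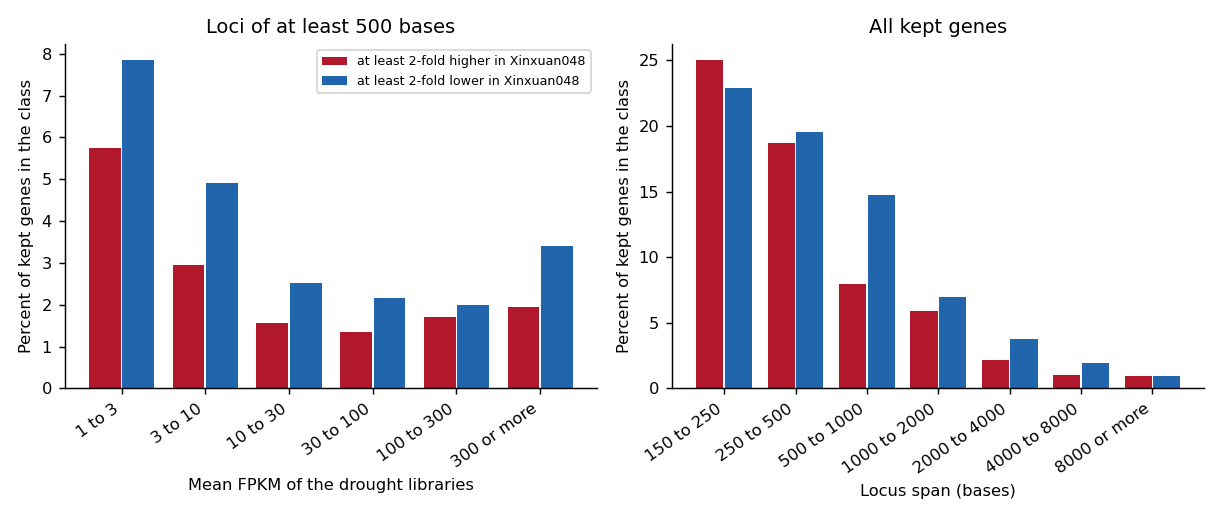
Percent of kept genes at least 2-fold higher (red, left bar of each pair) and lower (blue, right bar) in Xinxuan048 drought than in KU50 drought, by mean FPKM of the drought libraries (left, loci of at least 500 bases) and by locus span in bases (right, all kept genes). The shares are highest for low and short genes, with 5.74% higher and 7.84% lower at 1 to 3 FPKM.

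Loci under 500 bases were a case of their own. Of 503 such genes, 103 (20.5%) stood higher in Xinxuan048 by 2-fold or more and 103 (20.5%) stood lower, and the SD of the log2 ratio across them was 1.52. All loci under 500 bases, with those that the filter left out, took up 8.96% of the FPKM total in Xinxuan048 drought and 2.24% in KU50 drought. In control they took up 1.82% in Xinxuan048 and 2.03% in KU50. At the top of the ranking, MANES_11G093200, 150 bases of chromosome 11 from 14403705 to 14403854, had 381 FPKM in Xinxuan048 drought and was unlisted in KU50 drought. MANES_S072600, 362 bases of an unplaced sequence, had 54.5 FPKM in Xinxuan048 drought, was unlisted in KU50 drought, and had 60.2 FPKM in Xinxuan048 control and 51.6 FPKM in KU50 control. The 381 FPKM is 7 times the 54.5 FPKM of the second gene, so the highest ratio may rest on as few as 7 fragments. At the lower end, MANES_13G057200, 150 bases of chromosome 13 from 6197030 to 6197179, was unlisted in Xinxuan048 drought and had 93.6 FPKM in KU50 drought. In control it had 60.2 FPKM in Xinxuan048 and 103 FPKM in KU50. If its lowest listed value is 1 fragment, its KU50 drought value may rest on as few as 1 fragment too. MANES_02G057100, 324 bases of chromosome 2 from 4283001 to 4283324, was unlisted in Xinxuan048 drought, had 27.1 FPKM in KU50 drought, 0.315 FPKM in Xinxuan048 control and 15.5 FPKM in KU50 control. It is the one of these 4 short genes whose control libraries were at least 2-fold apart in the same direction.

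Among longer loci listed in both drought libraries, the strongest differences were of the kind in which 1 cultivar was near silent. MANES_07G050400 (chromosome 7, 5233947 to 5234589) had the highest log2 ratio, 5.69, with 55.1 FPKM in Xinxuan048 drought and 0.0831 FPKM in KU50 drought. In control leaves the order was turned round, since Xinxuan048 did not list it and KU50 had 92.2 FPKM. MANES_16G037000 (chromosome 16, 4290429 to 4291962) came next at 5.14, with 42.6 FPKM in Xinxuan048 drought and 0.234 FPKM in KU50 drought. Here control leaves went the same way, with 164 FPKM in Xinxuan048 and 2.64 FPKM in KU50, which is 5.50 on the log2 scale. At the other end stood MANES_14G147100 (chromosome 14, 13987331 to 13988170) at -7.22, with 0.397 FPKM in Xinxuan048 drought and 207 FPKM in KU50 drought. Control leaves of Xinxuan048 lacked it in the file and those of KU50 had 433 FPKM, so it was abundant in both KU50 libraries and at most a trace in Xinxuan048. MANES_16G012100 (chromosome 16, 1164798 to 1166935) had a ratio of -5.78, with 0.112 FPKM in Xinxuan048 drought and 59.9 FPKM in KU50 drought. Its control values were 0.0475 FPKM in Xinxuan048 and 178 FPKM in KU50, a log2 ratio of -7.42. Many fragments stood behind the higher value of each. If the lowest listed value of each gene is taken as no less than 1 fragment, the higher library held at least 584 fragments of MANES_07G050400, 160 of MANES_16G037000, 591 of MANES_14G147100 and 1227 of MANES_16G012100.

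**Figure D3:**
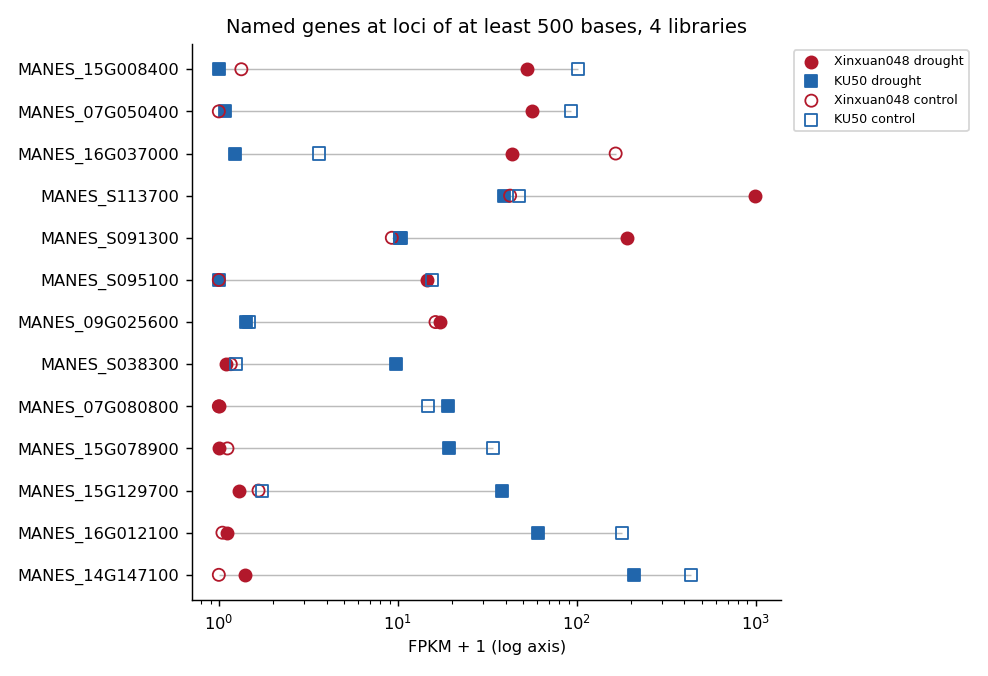
FPKM + 1 on a log axis for the named genes at loci of at least 500 bases, 1 marker for each of the 4 libraries (filled for drought, open for control, circles for Xinxuan048, squares for KU50), ordered by the log2 ratio under drought with the highest at the top. A marker at 1 is an unlisted gene, and MANES_S113700 reaches 986 FPKM in Xinxuan048 drought while its other 3 libraries lie between 38.3 and 46.8 FPKM.

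Of the 19531 kept genes at loci of at least 500 bases, 19458 were listed in both drought libraries. Only Xinxuan048 drought listed 35 of them, and only KU50 drought listed 38. MANES_15G008400 (chromosome 15, 792220 to 793130) had 51.5 FPKM in Xinxuan048 drought and was unlisted in KU50 drought, while in control leaves it had 0.336 FPKM in Xinxuan048 and 101 FPKM in KU50. MANES_S095100, on an unplaced sequence from 10512 to 11947, had 13.6 FPKM in Xinxuan048 drought, was unlisted in KU50 drought, and in control leaves was unlisted in Xinxuan048 and at 14.6 FPKM in KU50. Both were thus present in Xinxuan048 under drought and in KU50 without it. By the same minimum Xinxuan048 drought held at least 131 fragments of MANES_15G008400. The 2 listed values of MANES_S095100 may rest on as few as 1 fragment each. On the other side, MANES_15G078900 (chromosome 15, 5790884 to 5793819) was unlisted in Xinxuan048 drought and had 18.2 FPKM in KU50 drought, with 0.117 FPKM in Xinxuan048 control and 33.2 FPKM in KU50 control. MANES_07G080800 (chromosome 7, 18083056 to 18083876) was unlisted in both Xinxuan048 libraries and had 18.1 FPKM in KU50 drought and 13.8 FPKM in KU50 control. Both of these KU50 genes were at most a trace in Xinxuan048 with or without drought. KU50 drought held at least 151 fragments of MANES_15G078900, but its value for MANES_07G080800 may rest on as few as 1 fragment.

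A wider group of genes, which includes the named ones that meet its limits, was on in 1 cultivar and near silent in the other under drought. With limits of at least 5 FPKM in 1 drought library and under 0.5 FPKM in the other, 27 genes were on in Xinxuan048 and 44 in KU50. Of the 44 genes on in KU50, 34 were also under 0.5 FPKM in Xinxuan048 control, and 0 reached 5 FPKM there. Over all 19531 genes, 4.92% were under 0.5 FPKM and 63.0% at 5 FPKM or more in that library. Of the 27 genes on in Xinxuan048, 6 were under 0.5 FPKM in KU50 control, while 14 reached 5 FPKM there, beside 3.06% and 67.9% of all genes in KU50 control. The drought values chose these genes, and the limits were chosen after values had been seen.

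The control libraries, which share no library with the drought pair, showed how much of the cultivar difference stood without drought. On the same 19531 genes, 404 (2.07%) stood at least 2-fold higher in Xinxuan048 control than in KU50 control, and 1163 (5.95%) lower. Of the 511 genes higher in Xinxuan048 under drought, 140 were also at least 2-fold higher in control, which is 27.4% of the drought list and 34.7% of the control list. Of the 783 lower genes, 269 were also at least 2-fold lower in control, 34.4% of the drought list and 23.1% of the control list. Over all genes, the shares in control were 2.07% and 5.95%. Across the 19531 genes the cultivar differences under drought and in control had a Pearson correlation of 0.315 and a Spearman correlation of 0.347, a description across genes of 2 pairs of libraries. Among the 10617 genes averaging 10 FPKM or more these were 0.375 and 0.393.

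**Figure D4:**
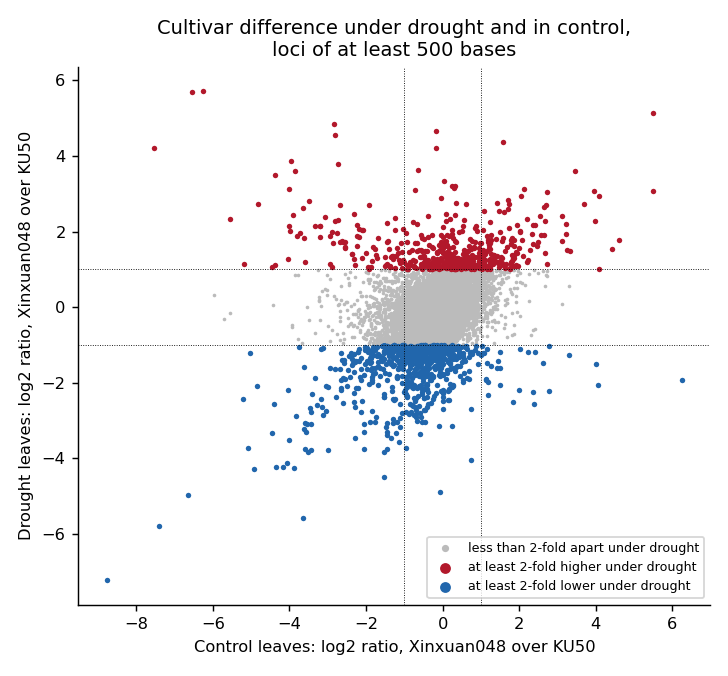
Log2 ratio of Xinxuan048 over KU50 in drought leaves (vertical axis) and in control leaves (horizontal axis) for 19531 genes at loci of at least 500 bases, with dotted lines at 2-fold. Of the 783 genes at least 2-fold lower under drought (blue), 269 lie left of the left dotted line and 29 right of the right one; of the 511 higher (red), 140 lie right of the right dotted line and 98 left of the left one.

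Genes that differed the same way in both conditions did not all hold a like level within each cultivar. Of the 140 higher genes, 84 lay within 2-fold between drought and control in both cultivars, and of the 269 lower genes 167 did, beside 78.0% of all 19531 genes. The 140 higher genes had medians of 10.5 FPKM in Xinxuan048 drought and 2.25 FPKM in KU50 drought, beside 10.9 FPKM in Xinxuan048 control and 1.84 FPKM in KU50 control. The 269 lower genes had medians of 1.92 FPKM in Xinxuan048 drought and 11.6 FPKM in KU50 drought, beside 1.05 FPKM in Xinxuan048 control and 8.13 FPKM in KU50 control. When genes were ranked by the smaller of their drought and control differences, MANES_16G037000 and MANES_09G025600 led the higher genes, and MANES_14G147100 and MANES_16G012100 the lower ones. All but MANES_09G025600 were more than 2-fold lower in drought than in control leaves of KU50. The log2 ratios there were -1.56 for MANES_16G037000, -1.06 for MANES_14G147100 and -1.55 for MANES_16G012100. MANES_16G037000 was also lower in drought than in control leaves of Xinxuan048, with a log2 ratio of -1.92. MANES_09G025600 (chromosome 9, 3821458 to 3823476) had 16.3 FPKM in Xinxuan048 drought and 0.415 FPKM in KU50 drought, 39.3 times as much. Its control leaves had 15.2 FPKM in Xinxuan048 and 0.473 FPKM in KU50, 32.2 times as much. Neither cultivar's level of this gene differed by drought by as much as 0.1 on the log2 scale, with differences of 0.09 in Xinxuan048 and -0.06 in KU50.

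Other genes differed under drought while their control levels were alike. Of the 511 higher genes, 164 (32.1%) were within 0.5 of equal levels in control on the log2 scale, and of the 783 lower genes 271 (34.6%) were. Over all 19531 genes 73.4% were within that range in control. The 271 lower genes had medians of 1.93 FPKM in Xinxuan048 drought and 7.58 FPKM in KU50 drought, against 1.75 FPKM in Xinxuan048 control and 2.13 FPKM in KU50 control. By these medians the KU50 drought library was high, while the other 3 were alike. The 164 higher genes had medians of 8.22 FPKM in Xinxuan048 drought and 2.35 FPKM in KU50 drought, against 6.98 FPKM in Xinxuan048 control and 6.84 FPKM in KU50 control. By these medians KU50 drought again stood apart, this time by a low level, but the medians do not hold for every gene. Between drought and control, 96 of the 164 lay within 2-fold in Xinxuan048, 73 in KU50 and 36 in both. Of the 271 lower genes 225, 99 and 76 did, in the same order. Over all 19531 genes 78.0% lay within 2-fold in both cultivars.

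Single genes of this kind were far apart. MANES_15G129700 (chromosome 15, 9866889 to 9872098) had 0.296 FPKM in Xinxuan048 drought and 37.3 FPKM in KU50 drought, with 0.667 FPKM in Xinxuan048 control and 0.747 FPKM in KU50 control. Its log2 ratio was -4.89 under drought and -0.07 in control, and KU50 drought held at least 142 fragments of it on the step given above. MANES_S038300, on an unplaced sequence from 83715 to 84483, had 0.0981 FPKM in Xinxuan048 drought and 8.76 FPKM in KU50 drought, with 0.166 and 0.249 FPKM in the control leaves of Xinxuan048 and KU50. Both were below 1 FPKM everywhere but in drought-stressed KU50. In the other direction the largest differences were on unplaced sequences. MANES_S113700, bases 2 to 1037 of its sequence, had 986 FPKM in Xinxuan048 drought and 38.3 FPKM in KU50 drought, with 41.4 FPKM in Xinxuan048 control and 46.8 FPKM in KU50 control. MANES_S091300, from 9859 to 10455, had 189 FPKM in Xinxuan048 drought and 9.24 FPKM in KU50 drought, with 8.26 FPKM in Xinxuan048 control and 9.36 FPKM in KU50 control. Xinxuan048 drought was 25.8 and 20.5 times as high as KU50 drought at these genes, and the other 3 libraries were alike at each. By the same minimum Xinxuan048 drought held at least 22 and 19 fragments of them, and each other library may hold as few as 1.

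Over all genes that differed under drought, the 4 libraries can be set side by side, though the responses to drought share a library with the cultivar difference and are therefore values only. The 511 higher genes had medians of 7.98 FPKM in Xinxuan048 drought, 1.76 FPKM in KU50 drought, 5.56 FPKM in Xinxuan048 control and 4.74 FPKM in KU50 control. Their median log2 ratio of drought to control was 0.50 in Xinxuan048 and -0.76 in KU50, beside 0.38 and 0.32 over all 19531 genes in the same order. The 783 lower genes had medians of 2.09 FPKM in Xinxuan048 drought, 8.64 FPKM in KU50 drought, 1.53 FPKM in Xinxuan048 control and 3.85 FPKM in KU50 control. Their median log2 ratio of drought to control was 0.18 in Xinxuan048 and 0.97 in KU50. In both lists the KU50 medians lay further from those of all genes than the Xinxuan048 medians did. The higher genes took up 2.48% of the FPKM total in Xinxuan048 drought and 0.659% in KU50 drought. The lower genes took up 1.0% in Xinxuan048 drought and 3.17% in KU50 drought.

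A smaller group turned round between the conditions. Of the 511 genes at least 2-fold higher in Xinxuan048 under drought, 98 (19.2%) were at least 2-fold lower in control, beside 5.95% of all genes. Of the 783 genes at least 2-fold lower under drought, 29 (3.70%) were at least 2-fold higher in control, beside 2.07% of all genes. The control shares were larger among low or short genes. At 1 to 3 FPKM 11.4% were lower and 2.29% higher in control, and at 3 to 10 FPKM 7.62% and 2.48%. At loci of 500 to 1000 bases 13.9% were lower and 5.35% higher in control. The 98 genes had medians of 5.07 FPKM in Xinxuan048 drought and 0.538 FPKM in KU50 drought, against 0.442 FPKM in Xinxuan048 control and 8.42 FPKM in KU50 control. By the medians they were present in Xinxuan048 drought and KU50 control and low in the other libraries. Most were of low abundance, and 16 of the 98 averaged 10 FPKM or more over the drought libraries. The 29 genes had medians of 2.91 FPKM in Xinxuan048 drought and 13.8 FPKM in KU50 drought, against 4.34 FPKM in Xinxuan048 control and 0.269 FPKM in KU50 control. Here KU50 control had the lowest median and KU50 drought the highest.

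Some of the genes that differed lay side by side. Among kept genes of at least 500 bases that share their locus with no other gene, 10.4% of the genes at least 2-fold lower in Xinxuan048 (77 of 737 with a next gene on their sequence) were followed by another such gene. Over all 18489 genes with a next gene, 3.98% were followed by one. For genes at least 2-fold higher, 7.24% (33 of 456) were followed by another, beside 2.49% over all genes. Runs of at least 3 successive kept genes in the same direction numbered 13 with lower genes, 42 genes in all, and 5 with higher genes, 17 genes in all. In the lower runs 12 of the 42 genes were at least 2-fold apart the same way in control, beside 34.4% of all 783 lower genes. In the higher runs 5 of the 17 were, beside 27.4% of all 511 higher genes. The minimum of 3 genes was chosen after values had been seen.

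**Figure D5:**
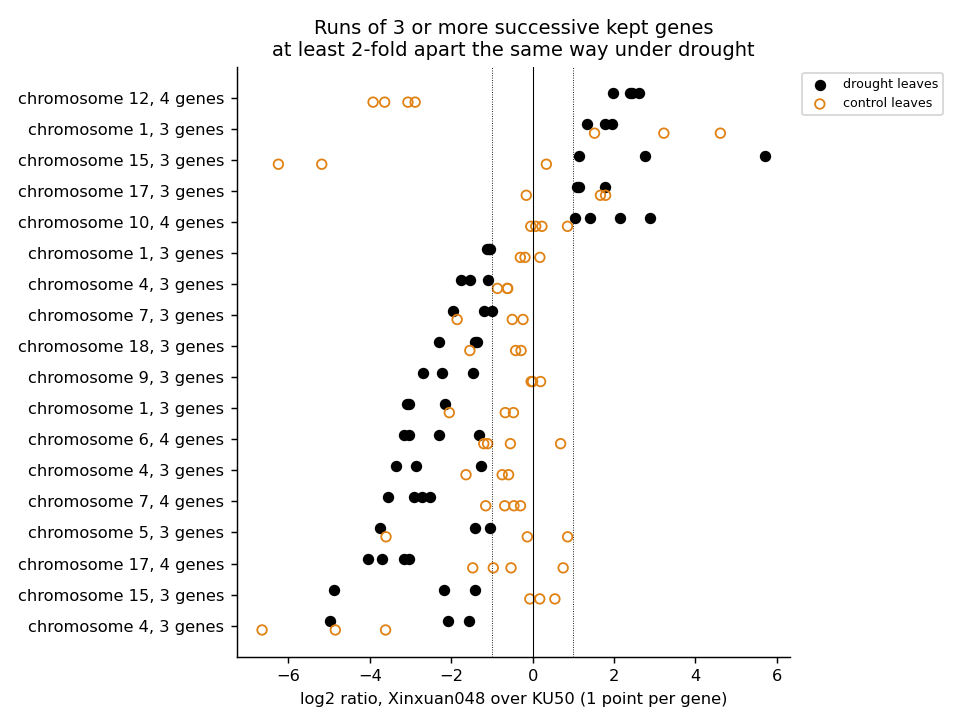
Log2 ratio of Xinxuan048 over KU50 for each gene of the 18 runs of at least 3 successive kept genes that differed the same way under drought (filled points, drought leaves; open points, control leaves; dotted lines at 2-fold). The 4 genes of the chromosome 12 run lie between 1.99 and 2.61 under drought and between -3.92 and -2.89 in control.

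The longest runs held 4 genes and did not behave alike in control leaves. On chromosome 17, from 21746981 to 22002085, 4 genes had log2 ratios of -4.04 to -3.04 under drought, with 0 to 2.56 FPKM in Xinxuan048 and 7.24 to 31.1 FPKM in KU50. In control leaves they had at most 1.51 FPKM in Xinxuan048 and at most 3.54 FPKM in KU50, so the run was high in KU50 drought and low in the other libraries. The run on chromosome 7 from 2536472 to 2633470 had higher levels, with 3.09 to 37.9 FPKM in Xinxuan048 drought and 25.8 to 223 FPKM in KU50 drought. Its control levels were 2.78 to 40.6 FPKM in Xinxuan048 and 4.20 to 50.1 FPKM in KU50. Its log2 ratios were -3.56 to -2.52 under drought and -1.15 to -0.30 in control, so all 4 genes were lower in Xinxuan048 in control too, 1 of them at least 2-fold. On chromosome 17 the control ratios ran from -1.47 to 0.75. Another run, on chromosome 6 from 26257067 to 26395656, had log2 ratios of -3.16 to -1.31 under drought and of -1.20 to 0.69 in control. By contrast, all 3 genes of the run on chromosome 4 from 25499322 to 25698392 were lower in Xinxuan048 in both conditions, with log2 ratios of -4.98 to -1.57 under drought and -6.65 to -3.61 in control.

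Of the runs of higher genes, that on chromosome 12 from 4136922 to 4258804 turned round between the conditions as a block. Its 4 genes had 2.96 to 7.41 FPKM in Xinxuan048 drought and 0 to 0.557 FPKM in KU50 drought, against 0 to 0.822 FPKM in Xinxuan048 control and 6.40 to 19.1 FPKM in KU50 control. The drought values chose this run, so the gap between its drought ranges follows in part from that choice. Its control values come from 1 library on each side, and its 4 genes are not replicates. The run on chromosome 10 from 21261120 to 21290414 had 2.22 to 15.5 FPKM in Xinxuan048 drought and 0.0939 to 1.21 FPKM in KU50 drought, while both control libraries stayed at or below 2.51 FPKM. It was highest in Xinxuan048 drought. The run on chromosome 1 from 1844673 to 1891372 was higher in Xinxuan048 in both conditions, with log2 ratios of 1.33 to 1.95 under drought and 1.52 to 4.61 in control.

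The share of genes that diverged varied between chromosomes, and these differences were not tested. Over the 18 chromosomes, the share of genes at least 2-fold higher in Xinxuan048 ran from 1.56% on chromosome 9 to 3.85% on chromosome 17. The share at least 2-fold lower ran from 2.65% on chromosome 12 to 6.52% on chromosome 7. In either direction chromosome 7 stood at the top with 10.3% of 751 genes, followed by chromosome 10 with 8.12% of 825 genes. On the unplaced sequences 15.3% of 463 genes were at least 2-fold apart, 36 higher and 35 lower. By direction, 3.73% of chromosome 7 genes were higher and 6.52% lower in Xinxuan048 under drought, against 2.93% higher and 8.79% lower in control. Of the unplaced genes 7.78% were higher and 7.56% lower under drought, against 3.67% higher and 11.7% lower in control, so the even split under drought was not found in control. Over all genes the control shares were 2.07% higher and 5.95% lower.

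Genes that overlap a neighbour deserve care. The files give 1 position to overlapping genes, and whether their reads were split by strand is not given in the sources used here. Of the 19531 genes 766 (3.92%) share their position with another gene. Among the genes that differed, 28 of the 511 higher (5.48%) and 24 of the 783 lower (3.07%) did so. None of the genes named here shares its position.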

How the data were processed

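Leaf RNA was sequenced on an Illumina HiSeq 2000, per the labels' protocols, in 1 library per cultivar and condition. The deposited files hold FPKM, which the authors gave for each gene. Of tools, TopHat2 2.0.12 and Cufflinks appear in the submitters' processing notes; TopHat2 aligns reads across introns and Cufflinks estimates transcript levels. Settings, genome build and annotation are not given in the sources used here. Starts in the files count from 0, since 1 locus starts there; positions are printed from 1. A position damaged in 1 library came from another library.

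Genes were joined by tag in Python 3.11.15 with pandas 2.3.3, the FPKM were not rescaled, and the pseudocount was 1. The code for the 2-fold counts and for the median log2 ratio was tested on simulated data, and the other steps were not. For each of 5 classes the 2 highest and the 2 lowest genes are named. These are loci of at least 500 bases listed in both drought libraries with at least 5 FPKM in 1 (ranked by log2 ratio), loci of that span listed in 1 drought library (by FPKM), genes of the first class at least 2-fold apart the same way in control (by the smaller difference), genes of the first class within 0.5 on the log2 scale in control, and loci under 500 bases. The comparison, classes and limits were chosen with earlier results of these data known. Gene lists by description could not be applied, for want of names.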

Additional observations from a re-analysis of the deposited data

Results flagged for a closer look

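The cultivar difference turned round between drought and control at 98 genes that were at least 2-fold higher in Xinxuan048 under drought and at least 2-fold lower in control, and at 29 genes with the reverse. The difference between the conditions was not tested, since each rests on 1 pair of libraries. Of the named genes, 3 are of the first kind. On the log2 scale the cultivar difference under drought minus that in control was 12.24 at MANES_07G050400, 11.96 at MANES_15G008400 and 7.83 at MANES_S095100, all by FPKM + 1 with unlisted libraries at 0. The values of MANES_S095100 may rest on as few as 1 fragment in each library that lists it.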

How the results depend on the processing

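With 1 library on each side, leaving out a library leaves no comparison. No paired analysis was possible because each group has 1 library and no replicate numbers. Counts that moved by over 1.5 times are given with genes at loci of at least 500 bases first (higher then lower in Xinxuan048), then shorter loci in the same order, then genes apart the same way under drought and in control, then genes that turned round; the main counts were 511 and 783, 103 and 103, 140 and 269, and 98 and 29. A 4-fold limit gave 92 and 175, 38 and 36, 20 and 52, and 29 and 4, since fewer genes reach it. A filter at a mean of 5 FPKM, which leaves fewer genes, gave 254 and 428, 48 and 44, 84 and 163, and 30 for genes that turned round from lower in control to higher under drought. At 10 FPKM the counts were 161 and 255, 38 and 25, 50 and 105, and 16 and 13. A pseudocount of 5 gave 158 and 260, 52 and 38, 45 and 70, and 25 and 7. A pseudocount of 0.1 gave 776 higher genes at loci of at least 500 bases, 224 and 541 the same way in both conditions, and 173 and 62 that turned round. With genes listed in both drought libraries only, 64 shorter loci were lower. The median log2 ratio of -0.08 came to -0.026 with upper-quartile scaling and turned to 0.000772 with TMM scaling, chosen after seeing the data, where 602 genes were higher and 661 lower. For the moved pseudocount and scaling values the cause was not tested. All 17 named genes kept their direction and stayed at least 2-fold apart under the pseudocounts and scalings run. Leaving out genes that share a locus, also chosen after seeing the data, gave 483 and 759.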
